A study of Mus musculus with 2 samples.

Results

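The genes described here are 9 core components of the Hedgehog pathway, out of 25791 gene symbols in the deposited tables. They were taken by symbol from a list drawn up with earlier results of these data known, with no threshold on their values: the ligands Shh and Ihh, the receptor Ptch1, the decoy receptor Hhip, the signal transducer Smo, the inhibitor Sufu and the transcription factors Gli1, Gli2 and Gli3. All 9 were found in both tables, and 6 of them averaged at least 1 FPKM over both libraries. RNA was sequenced from fetal mouse thymus at 15 days post coitum, after sorting cells that carried EpCAM and lacked CD45 and PDGFRa, a gate for thymic epithelium. The library titled humanCD3eTg came from mice of a C57BL/6J x CBA/J background that, by this title, carry a human CD3E transgene. The library titled B6J came from C57BL/6 mice. The study set thymic epithelium with thymocytes beside thymic epithelium without them. The treatment label gives presence of thymocytes for humanCD3eTg and absence for B6J, whereas a human CD3E transgene of high copy number is generally known to block T cell development, and thymocyte transcripts were lower in humanCD3eTg, so the libraries are called by their titles. The promoter and copy number of the transgene and the number of fetuses pooled were not given in the sources used here. With 1 library per group, no test was possible, the spread between mice is unknown, and the transgene, the strain background and the thymocytes cannot be told apart.

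Hedgehog ligands are secreted, lipid-bearing proteins. Without ligand, the receptor Ptch1 holds the membrane protein Smo inactive, Sufu keeps the GLI factors in check, and Gli3 in particular is cut to a repressor. When a ligand binds Ptch1, Smo moves into the primary cilium and the GLI factors turn on target genes, among them Gli1, Ptch1 and Hhip themselves, of which the last encodes a surface protein that traps ligand. In the third pharyngeal pouch of the mouse, Sonic hedgehog favours the parathyroid domain and limits the domain that becomes thymus, and in the fetal thymus the pathway also acts on developing thymocytes.

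Hhip and Ptch1 are both known as direct targets of the pathway whose products bind its ligands, yet they differed in how far apart the libraries stood, so the sequences before their start sites are shown. RefSeq's table of promoters held 7 of the 9 members. The sequences are RefSeq's on GRCm38.p6, a later build than that of the expression tables, and bases inside the RefSeq gene or a GENCODE exon were left out. That of Hhip lies at chr8:80058061-80058258 on the minus strand and that of Ptch1 at chr13:63565736-63565985 on the minus strand. Capitals mark CCACCC, the core of GACCACCCA, the motif known to be bound by GLI factors.
Hhip: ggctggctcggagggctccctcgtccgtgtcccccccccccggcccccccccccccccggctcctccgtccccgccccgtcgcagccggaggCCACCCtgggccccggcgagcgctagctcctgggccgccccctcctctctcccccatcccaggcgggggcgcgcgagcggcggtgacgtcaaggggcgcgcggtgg
Ptch1: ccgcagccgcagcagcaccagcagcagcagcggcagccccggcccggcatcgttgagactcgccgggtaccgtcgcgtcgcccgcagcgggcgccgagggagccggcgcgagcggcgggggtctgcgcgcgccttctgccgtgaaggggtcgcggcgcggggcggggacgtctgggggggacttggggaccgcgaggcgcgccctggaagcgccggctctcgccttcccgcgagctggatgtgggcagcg
The whole motif GACCACCCA, which contains the core, was found on neither strand of these windows. It occurs in 0.192% of 32851 promoter windows of 198 bases, the length shown for Hhip, and in 0.225% of windows of 250 bases, the length shown for Ptch1. The core was found 1 time for Hhip, from base 93 on the printed strand, and not for Ptch1, searching both strands. The core occurs in 22.1% of all windows of 198 bases and 28.1% of those of 250 bases. These matches describe letters only.

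The ligands Shh and Ihh were at the edge of detection in the sorted cells. Shh was listed at 0 FPKM in humanCD3eTg, against 0.0487 FPKM in B6J. FPKM is a level per length of transcript and of sequencing depth. With the depth estimated from the steps of low values, about 15900000 fragments in humanCD3eTg and 19800000 fragments in B6J, the Shh level in B6J rests on about 3 fragments. Ihh was listed at 0 FPKM in humanCD3eTg, against 0.0223 FPKM in B6J, which is about 1 fragment. No difference in either ligand was detectable at this depth, and no fold is given. Dhh, the third mammalian ligand, was also low, at 0.262 FPKM in humanCD3eTg and 0.254 FPKM in B6J. It was detected in both libraries, from about 17 fragments in humanCD3eTg and 20 in B6J, more than Shh or Ihh. The ratio for Dhh was 1.03 with a counting interval (95%, exact binomial) of 0.52 to 2.12. This interval and those below cover counting error only.

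Several genes that modify or bind the ligands were expressed well above the ligands themselves. Hhat, the enzyme that attaches palmitate to the ligands, stood at 2.09 FPKM in humanCD3eTg and 2.39 FPKM in B6J, a difference that vanished with quantile normalization, and its ratio interval of 0.651 to 1.15 spans 1. Disp1, which releases the ligands from the cell, was listed at 0 in both libraries. A listed 0 can be a failed estimate, since Hmgcs1, a gene of sterol synthesis picked after its values were seen, was also listed at 0 in both. Among the heparan sulphate proteins that bind ligand outside the cell, Gpc3 had 27.1 FPKM in humanCD3eTg and 18.0 FPKM in B6J, a ratio of 1.51. Gpc4, of the same family, had 8.50 FPKM in humanCD3eTg and 9.09 FPKM in B6J. Sulf1, which trims heparan sulphate, had 37.5 FPKM in humanCD3eTg and 43.4 FPKM in B6J. Of 14 genes on the list of ligands and their release, 6 averaged at least 1 FPKM. The list contained no gene that differed by 2-fold on FPKM + 1, and its median log2 ratio was -0.09, beside -0.05 over all 13493 genes with that mean. Of those genes, 4.47% were lower by 2-fold and 2.10% higher, so none among 6 carries little.

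**Figure D1:**
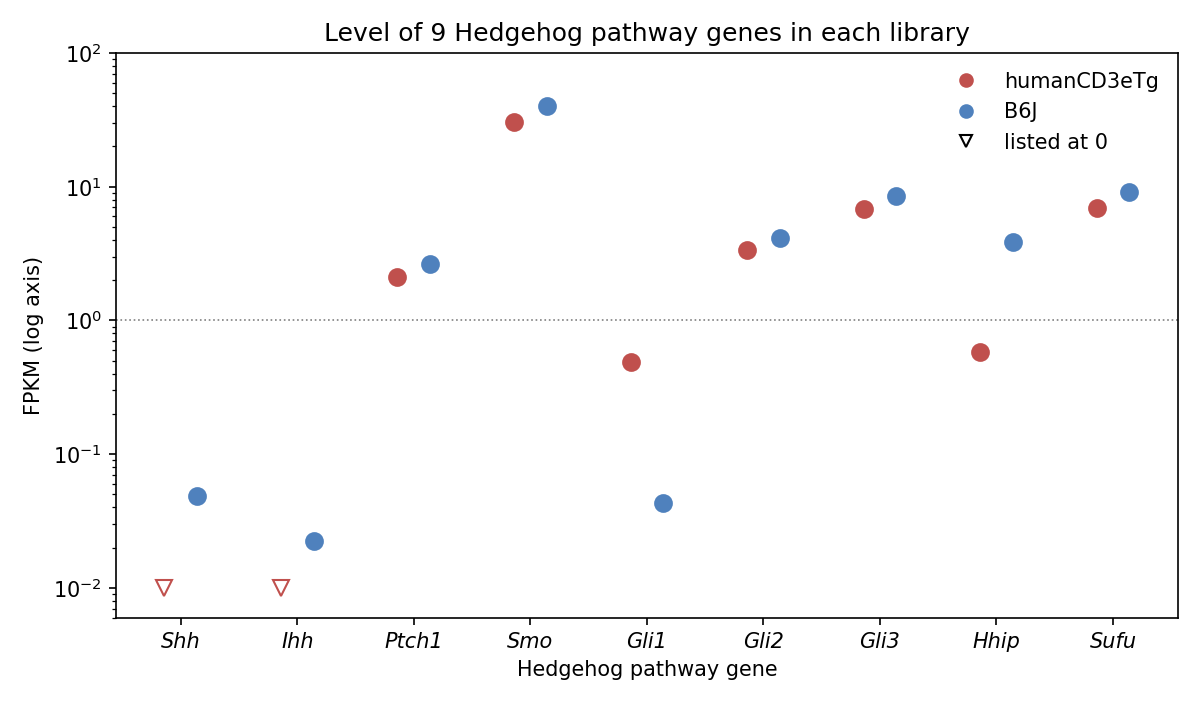
FPKM of each of the 9 genes in the library titled humanCD3eTg (red, left of each pair) and in that titled B6J (blue, right), 1 point per library, on a log axis; open triangles at the foot mark genes listed at 0, and the dotted line marks 1 FPKM. Smo stands highest in both libraries, Shh and Ihh are listed at 0 in humanCD3eTg, Shh, Gli1 and Ihh stand lowest in B6J, and the points of Hhip and Gli1 are the farthest apart among genes above 0 in both, in opposite directions.

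The receptors and the transducer were present at moderate to high levels. Smo, the membrane protein that passes the signal on, stood at 30.6 FPKM in humanCD3eTg and 40.0 FPKM in B6J. This placed Smo above 84.6% of genes listed above 0 in humanCD3eTg and above 88.3% in B6J. The Smo ratio of humanCD3eTg over B6J was 0.765 (counting interval 0.72 to 0.812). Ptch1, the ligand's receptor, stood at 2.12 FPKM in humanCD3eTg and 2.65 FPKM in B6J, a ratio of 0.799 (0.680 to 0.939). The Smo transcript thus stood above that of Ptch1 per length by 14.4-fold in humanCD3eTg and 15.1-fold in B6J. These are RNA levels and give no balance of the proteins.

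The co-receptors Boc, Gas1 and Cdon, which hold ligand for Ptch1, were higher in level than Ptch1 itself in both libraries, whereas Lrp2, an endocytic receptor on the same list named after its values were seen, was lower than Ptch1, at 1.11 FPKM in humanCD3eTg and 0.461 FPKM in B6J. Boc stood at 19.2 FPKM in humanCD3eTg and 26.5 FPKM in B6J, a ratio of 0.726 (0.678 to 0.778). Gas1 stood at 10.0 FPKM (9.998) in humanCD3eTg and 13.0 FPKM in B6J, a ratio of 0.77 (0.682 to 0.869). Cdon stood at 3.88 FPKM in humanCD3eTg and 4.20 FPKM in B6J, lower in humanCD3eTg as deposited and higher under quantile normalization, with a ratio interval of 0.816 to 1.04 that spans 1. Boc and Gas1 thus lay near the ratios of Smo and Ptch1, and Cdon nearer to equality. Of 8 receptor genes 6 averaged at least 1 FPKM, and the median log2 ratio was -0.36.

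Hhip was the member that stood farthest below its B6J level in humanCD3eTg. It stood at 0.583 FPKM in humanCD3eTg and 3.88 FPKM in B6J. The FPKM ratio was 0.150 with a counting interval of 0.118 to 0.189, from about 82 fragments in humanCD3eTg and 681 in B6J, and the log2 ratio of FPKM + 1 was -1.62. Of the 6 members averaging at least 1 FPKM, Hhip alone was lower by 2-fold on FPKM + 1, and none was higher by 2-fold. Over all genes with that mean, 4.47% were lower by 2-fold and 2.10% higher, so the share among members rests on a single gene. Among the 4186 genes with a mean of 1 to 5 FPKM, the range of Hhip, 7.91% were lower by 2-fold. In all, 272 of 13493 genes, or 2.02%, had a log2 ratio at or below that of Hhip, itself included.

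The order of the ligand-binding targets turned with this difference. Hhip was at 0.275 times the level of Ptch1 in humanCD3eTg and at 1.46 times that level in B6J. Hhip stood above 21.2% of detected genes in humanCD3eTg and above 47.1% in B6J, while Ptch1 stood above 36.2% in humanCD3eTg and 41.7% in B6J.

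Thymocyte, leukocyte and endothelial markers were, like Hhip, lower in humanCD3eTg. Other cell marker lists had median log2 ratios of -0.12 for mesenchyme, 0.02 for parathyroid and thyroid, and 1.97 for neural crest. Mesenchymal markers went both ways: of 12 averaging at least 1 FPKM, 7 were lower and 5 higher. Tcf21, named after its values were seen, was the 1 mesenchymal marker lower by 2-fold, at 0.548 FPKM in humanCD3eTg and 2.70 FPKM in B6J. All 10 thymocyte markers averaging at least 1 FPKM, called measured from here on, were lower in humanCD3eTg, 9 of them by 2-fold, and the summed level of the 12 listed was 8.57 FPKM in humanCD3eTg and 168.3 FPKM in B6J. Over all genes with that mean, 55.4% were lower by any amount and 4.47% lower by 2-fold. Cd3d, Cd3g and Rag2, which encode parts of the T cell receptor complex and of the enzyme that rearranges its genes, were listed at 0 in humanCD3eTg. Cd3d and Cd3g thus reached a mean of 1 FPKM through B6J alone. All 10 leukocyte markers were lower by 2-fold, with sums of 10.5 FPKM in humanCD3eTg and 75.6 FPKM in B6J. All 9 measured endothelial markers were lower, 8 by 2-fold, and the sums over the 10 listed were 17.6 FPKM in humanCD3eTg and 61.3 FPKM in B6J. No leukocyte or endothelial marker was listed at 0 in either library. The part of these cells in the Hhip difference was not tested. In bulk RNA such as this, fewer cells of a type and less RNA per cell cannot be told apart.

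The GLI factors had the same order in both libraries, Gli3 above Gli2 above Gli1. Gli3, the main repressor of the pathway, stood at 6.83 FPKM in humanCD3eTg and 8.53 FPKM in B6J, a ratio of 0.80 (0.733 to 0.872). Gli2, the main activator, stood at 3.38 FPKM in humanCD3eTg and 4.11 FPKM in B6J, a ratio of 0.824 (0.716 to 0.944). Gli3 was thus 2.02 times as high as Gli2 in humanCD3eTg and 2.08 times in B6J, nearly the same balance. Sufu, which binds GLI factors in the cytoplasm, stood at 6.98 FPKM in humanCD3eTg and 9.19 FPKM in B6J, a ratio of 0.759 (0.676 to 0.851). Sufu and Gli3 were alike in level within each library, with counting intervals of 6.37 to 7.63 and 6.38 to 7.29 FPKM in humanCD3eTg and of 8.56 to 9.86 and 8.08 to 9.0 FPKM in B6J, each pair overlapping.

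Gli1, the factor whose transcript is the usual readout of active signalling, was the 1 member higher in humanCD3eTg. It stood at 0.492 FPKM in humanCD3eTg and 0.0433 FPKM in B6J, below 1 FPKM in both. The FPKM ratio was 11.4, and the counting interval of 3.87 to 63.7 is wide because the B6J value rests on about 3 fragments and that of humanCD3eTg on about 30. On FPKM + 1 the log2 ratio was 0.52, short of 2-fold, since the pseudocount damps low genes. Gli1 made up 4.60% of the summed FPKM of the 3 GLI genes in humanCD3eTg and 0.342% in B6J. It remained the lowest of the 3 in both libraries, with Gli2 at 6.87 times its level in humanCD3eTg and 94.8 times in B6J. Neural crest and pigment cell markers moved with Gli1: of 9 measured, 8 were higher in humanCD3eTg, 7 by 2-fold, and the sums over 11 listed were 152.6 FPKM in humanCD3eTg and 28.2 FPKM in B6J. Over all genes averaging at least 1 FPKM, 2.10% were higher by 2-fold. Tyrp1 was listed at 0 in both libraries, and Mlana in B6J. The part of these cells in the Gli1 difference was not tested.

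**Figure D2:**
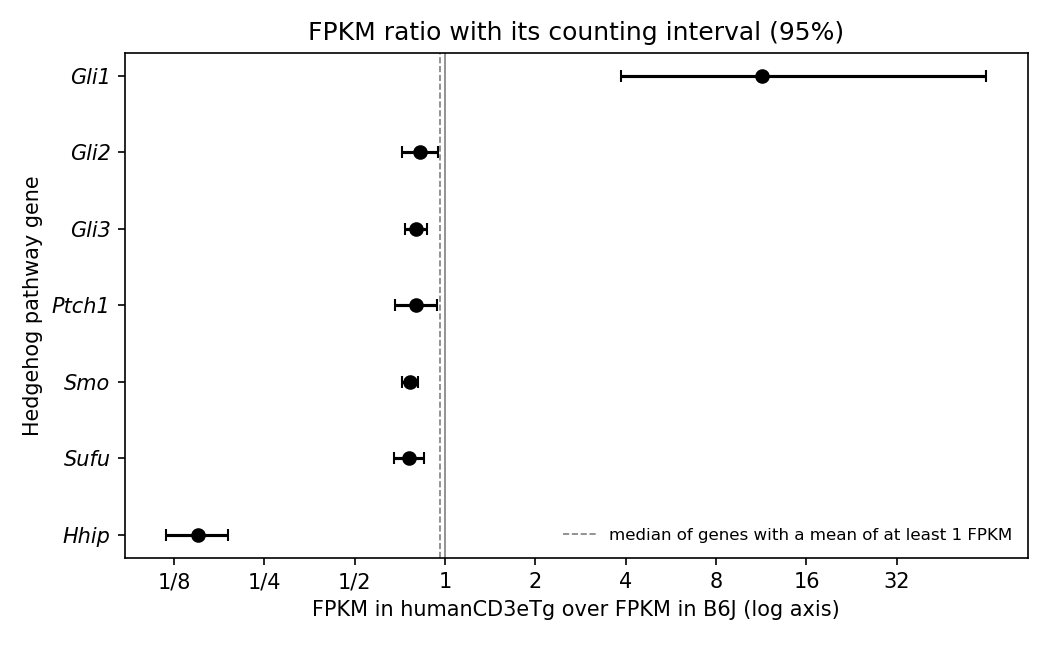
FPKM in humanCD3eTg over FPKM in B6J for the 7 genes above 0 in both libraries, on a log axis; bars are 95% counting intervals from estimated fragments and do not cover differences between mice, the solid line marks equality and the dashed line the median ratio, 0.965, of genes averaging at least 1 FPKM. Smo, Sufu, Ptch1, Gli2 and Gli3 lie together between 0.759 and 0.824, Hhip lies at 0.150 and Gli1 at 11.4.

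The 5 members other than Hhip that averaged at least 1 FPKM held nearly the same ratio. Their FPKM ratios of humanCD3eTg over B6J ran from 0.759 for Sufu to 0.824 for Gli2, with a median of 0.799. The median over 13366 genes with that mean and above 0 in both libraries was 0.965, and 7.47% of those genes fell within the range of the 5 members. Hhip was set aside with its value known, and the range comes from the same 5 values, so this share is a description only. All 6 members with that mean were lower in humanCD3eTg, where 55.4% of all such genes were lower. The direction of Smo, Sufu, Ptch1, Gli2, Gli3 and Hhip held under each pseudocount and each rescaling tried. With 2 libraries each gene has only 1 ratio, so likeness between genes carries little: from 1631 genes for Smo to 2457 for Gli2 lay within 0.1 of these 5 members' log2 ratios, against 68 genes for Hhip.

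**Figure D3:**
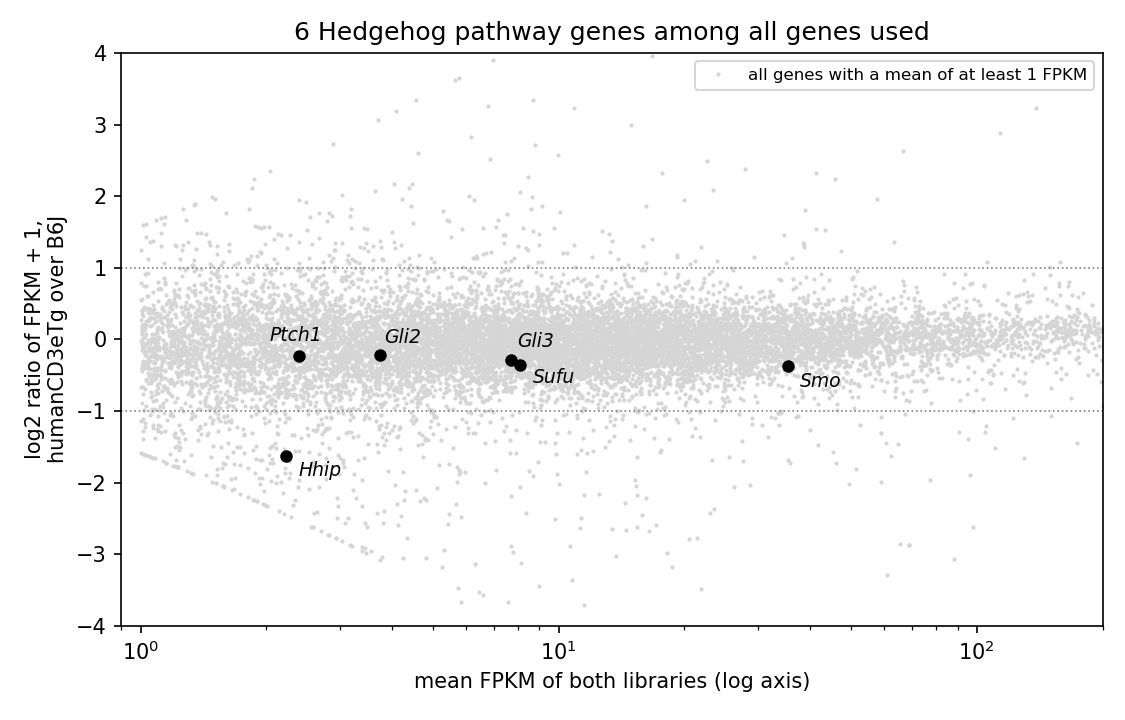
Log2 ratio of FPKM + 1, humanCD3eTg over B6J, against the mean FPKM of both libraries (log axis) for genes averaging at least 1 FPKM, grey, and 6 Hedgehog pathway genes, black; dotted lines mark 2-fold, and 581 genes with a mean above 200 FPKM or a log2 ratio beyond 4 in size lie outside the axes. Hhip, at -1.62, lies below the lower line, and the other 5 members lie between the lines and below 0.

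The list of GLI factors and the proteins that hold, process or degrade them had a median slightly below that of the whole table. It includes Gli2, Gli3 and Sufu, described above and all lower in humanCD3eTg. Of 26 measured genes on this list, 17 (65.4%) were lower and 9 higher, none by 2-fold on FPKM + 1, and the median log2 ratio was -0.14. Over all genes with that mean, 55.4% were lower and the median was -0.05, with 4.47% lower by 2-fold and 2.10% higher. Gpr161, a ciliary receptor that keeps the pathway off, stood at 1.85 FPKM in humanCD3eTg and 3.99 FPKM in B6J, a ratio of 0.463 (0.391 to 0.547). Kif7, a kinesin that organises the tip of the cilium, stood at 2.78 FPKM in humanCD3eTg and 2.04 FPKM in B6J, a ratio of 1.36 (1.11 to 1.68). Arrestins and the kinase GRK2 act on activated Smo. Arrb1 stood at 4.27 FPKM in humanCD3eTg and 7.19 FPKM in B6J, a ratio of 0.593. Arrb2 stood at 8.98 FPKM in humanCD3eTg and 13.1 FPKM in B6J, a ratio of 0.683. Adrbk1, which encodes GRK2, stood at 18.2 FPKM in humanCD3eTg and 24.8 FPKM in B6J, a ratio of 0.733. All 3 were thus lower in humanCD3eTg.

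The primary cilium, on which vertebrate Hedgehog signalling depends, was represented by 50 genes, all averaging at least 1 FPKM. Of these 33 (66%) were lower and 17 higher in humanCD3eTg, with a median log2 ratio of -0.12. Over all genes with that mean, 55.4% were lower and the median was -0.05, with 4.47% lower by 2-fold and 2.10% higher. Bbs7, part of the BBSome that carries membrane proteins through cilia, was the 1 gene past 2-fold on FPKM + 1, at 4.08 FPKM in humanCD3eTg and 9.22 FPKM in B6J. It lay just inside that limit (log2 ratio -1.01) and fell short of it after median centring or quantile normalization. Inpp5e, a phosphatase that sets the lipids of the ciliary membrane, stood at 5.53 FPKM in humanCD3eTg and 9.63 FPKM in B6J. Ift57 and Efcab7 differed the other way. Ift57, part of the transport trains of the cilium, stood at 8.48 FPKM in humanCD3eTg and 5.13 FPKM in B6J. Efcab7, which anchors the Smo partners Evc and Evc2 at the base of the cilium, stood at 3.48 FPKM in humanCD3eTg and 1.67 FPKM in B6J, a ratio of 2.09 (1.44 to 2.99).

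Genes known to be raised by Hedgehog signalling in some mouse tissues did not differ in 1 direction. Of 37 listed, 23 averaged at least 1 FPKM, of which 16 were lower and 7 higher, with a median log2 ratio of -0.18. Hhip and Grem1 were lower by 2-fold, and Bmp4 and Igfbp6 were higher by 2-fold. Over all genes with that mean, 55.4% were lower by any amount, 4.47% lower by 2-fold and 2.10% higher by 2-fold. Bmp4, a growth factor of the thymic primordium, stood at 8.75 FPKM in humanCD3eTg and 2.06 FPKM in B6J, a ratio of 4.25 (3.26 to 5.53). Grem1, a secreted inhibitor of BMP proteins, stood at 1.85 FPKM in humanCD3eTg and 5.60 FPKM in B6J, a ratio of 0.329 (0.267 to 0.406). The ligand and its inhibitor thus differed in opposite directions. Igfbp6, which binds insulin-like growth factors, stood at 8.84 FPKM in humanCD3eTg and 2.12 FPKM in B6J, a ratio of 4.17 (2.87 to 6.14). Most neural crest markers given above were higher in humanCD3eTg, as were Bmp4 and Igfbp6. The thymocyte, leukocyte and endothelial markers were lower there, as was Grem1. Of 12 measured mesenchymal markers, 7 were lower and 5 higher. The part of these cells in the differences of Bmp4, Igfbp6 and Grem1 was not tested. The 3 targets among the members were thus spread, with Hhip lower, Ptch1 near the other members and Gli1 higher at a low level.

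**Figure D4:**
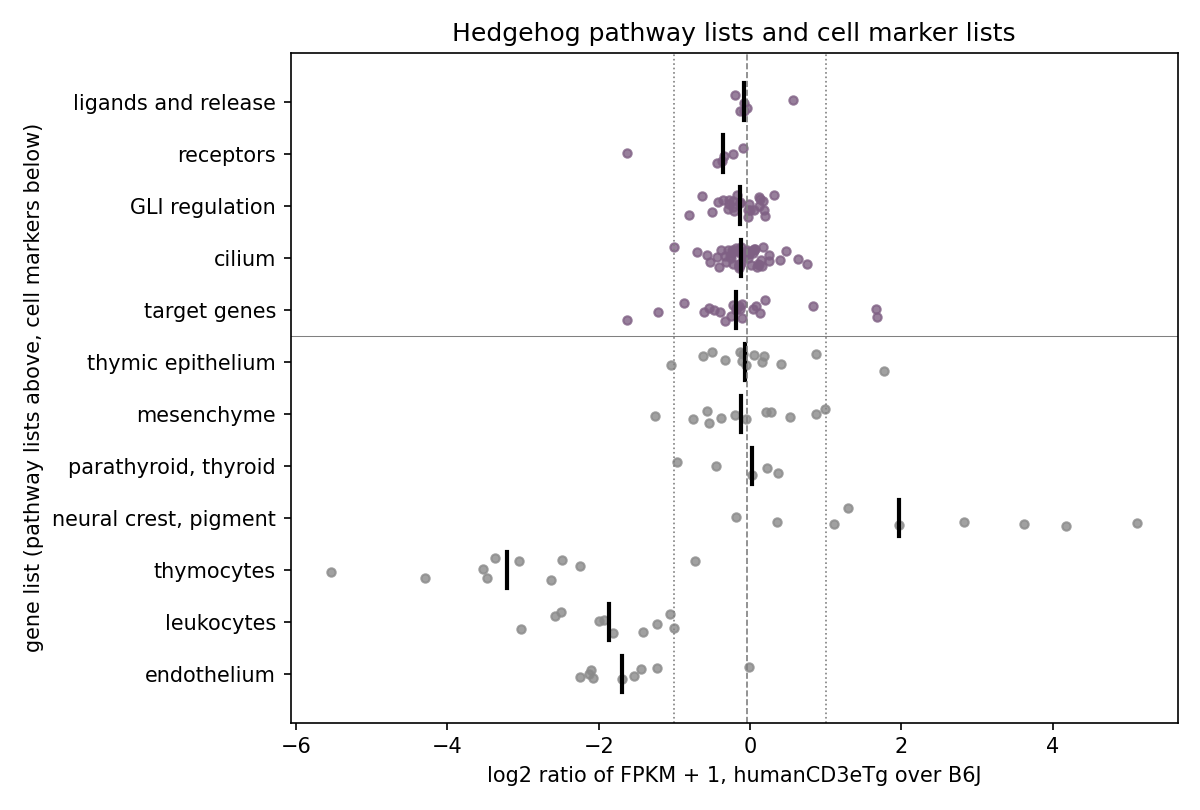
Log2 ratio of FPKM + 1, humanCD3eTg over B6J, for each gene averaging at least 1 FPKM on 5 Hedgehog pathway lists (purple) and 7 lists of cell markers (grey), with list medians as black bars, 2-fold as dotted lines and the median of all genes as a dashed line. The pathway medians lie between -0.36 for receptors and -0.09 for ligands and release, while thymocyte, leukocyte and endothelial medians lie at -3.21, -1.87 and -1.69 and the neural crest median at 1.97.

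Over all 137 pathway genes found, 109 averaged at least 1 FPKM. Of these 75 (68.8%) were lower in humanCD3eTg, 3 by 2-fold, and 34 higher, 2 by 2-fold, with a median log2 ratio of -0.14. Over all genes with that mean, 55.4% were lower by any amount, 4.47% lower by 2-fold and 2.10% higher by 2-fold.

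All 14 markers of thymic epithelium averaged at least 1 FPKM, and 8 were lower and 6 higher in humanCD3eTg, with a median log2 ratio of -0.07. Past 2-fold were Foxn1, the master factor of thymic epithelium, which stood at 43.7 FPKM in humanCD3eTg and 91.1 FPKM in B6J, and Krt5, a keratin of medullary and progenitor epithelium named after its values were seen, which stood at 955.5 FPKM in humanCD3eTg and 280.2 FPKM in B6J. Over all genes averaging at least 1 FPKM, 55.4% were lower by any amount, 4.47% lower by 2-fold and 2.10% higher by 2-fold. Krt18 and Krt8, keratins of simple epithelium, stood at 2951 and 2103 FPKM in humanCD3eTg and at 2656 and 2183 FPKM in B6J, and Prss16, a protease of cortical thymic epithelium, at 992.4 FPKM in humanCD3eTg and 1409 FPKM in B6J. Of the genes used in the sort, Epcam stood at 231.4 FPKM in humanCD3eTg and 173.5 FPKM in B6J, Ptprc, which encodes CD45, at 0.358 FPKM in humanCD3eTg and 4.18 FPKM in B6J, and Pdgfra at 0.348 FPKM in humanCD3eTg and 0.676 FPKM in B6J. Mesenchymal genes, known in many organs as responders to Hedgehog ligands, had a median log2 ratio of -0.12 over 12 genes and summed to 241.4 FPKM over 16 genes in humanCD3eTg and 204.0 FPKM in B6J, with only Foxd1 listed at 0, in both.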

How the data were processed

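Total RNA of sorted cells was extracted with TRIzol and made into TruSeq libraries, per the labels' protocols. The authors deposited 1 FPKM value per gene symbol for each of 2 libraries. Per the submitters' processing notes, the tools were TopHat2 2.0.8, Bowtie2 2.1.0 and Cufflinks 2.1.1, and the build mm9. Annotation, filters and use of strand were not given in the sources used here, so overlapping genes cannot be separated. Groups came from the titles.

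Log2 ratios, humanCD3eTg over B6J, used FPKM + 1, which understates differences of low genes, and genes averaging at least 1 FPKM were counted. A log2 ratio of 1 in size was called 2-fold. Values up to 0.001 FPKM are called listed at 0. The computation was tested on simulated data (Python 3.11.15, pandas 2.3.3, numpy 2.4.6, scipy 1.17.1). No test between groups was possible.

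Depth is not in the tables. Low FPKM values fall on steps worth 1 fragment. With GENCODE M21 lengths of single-transcript genes less 210 bases, and steps searched between 0.03 and 0.12, 1 fragment over 1 kb was worth 0.0628 FPKM in humanCD3eTg and 0.0505 FPKM in B6J. In humanCD3eTg 59.2% of 319 values came within 0.1 of a whole fragment, and in B6J 55.9% of 383. The ratio of these steps was 1.24, and the most frequent ratio among 1404 low genes, found without lengths, fell in the bin centred on 1.265. The range was searched with earlier results known. Fragments per gene used its longest coding transcript in GENCODE and are approximate, so no count test was run.

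The members and 13 lists of 219 symbols (218 found, 4 through an older symbol in RefSeq's table) were chosen in knowledge of earlier results of these data. Beside the members, genes were named by rule: in each pathway list all past 2-fold, or the 4 with the largest ratios, in each marker list the 3 highest, and 9 genes fixed by name. Some listed genes are not reported here. Alternative settings used a pseudocount of 0.1 or 5, limits of 1.5-fold and 4-fold, no filter, a filter at 5 FPKM, quantile normalization, centring on the median, and rescaling after ribosomal protein, mitochondrial and haemoglobin genes were left out.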

Additional observations from a re-analysis of the deposited data

How the results depend on the processing

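No paired analysis was possible because each group has 1 library. Of the members, Gli1 and Hhip depended most on the pseudocount: the log2 ratio of Gli1 was 2.05 with 0.1 and 0.12 with 5, and that of Hhip was -2.54 and -0.67, below 2-fold with 5. With quantile normalization Hhip was at -1.48. With a pseudocount of 0.1, Shh was at -0.57 and Ihh at -0.29, which carry no fold because both are listed at 0 in humanCD3eTg, and Ihh turned to 0.015 after median centring. The median of the 6 members was -0.22 with a pseudocount of 5, and the median over all pathway genes was -0.018 with quantile normalization, which turned the median of the ligand and release list to 0.048. The number of pathway genes lower by the limit was 3, and became 0 with a pseudocount of 5, 1 with a mean of at least 5 FPKM, 8 at 1.5-fold and 0 at 4-fold. The number higher was 2, and became 0 with a pseudocount of 5, 5 at 1.5-fold and 0 at 4-fold. Of these values for members, list medians and counts over the pathway, 96 stayed within their counting interval, the interval of the median or 1.5 times the count, and the 16 that did not are given here. No called value changed sign. Levels under about 0.1 FPKM rest on a few fragments.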

Other observations

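Of the genes of the parathyroid, the neighbour of the thymus in the third pouch and the domain that Sonic hedgehog favours there in the mouse, Pth and Chga were abundant in both libraries and Gcm2 and Casr were low. Pth, which encodes parathyroid hormone, stood at 875.1 FPKM in humanCD3eTg and 679.1 FPKM in B6J, and Chga, a protein of secretory granules, at 306.9 FPKM in humanCD3eTg and 262.9 FPKM in B6J. Gcm2, the master factor of the parathyroid, stood at 3.30 FPKM in humanCD3eTg and 3.23 FPKM in B6J, and Casr, the calcium-sensing receptor, at 1.25 FPKM in humanCD3eTg and 2.08 FPKM in B6J, both named after their values were seen. Calca, which encodes calcitonin of thyroid C cells, stood at 2.98 FPKM in humanCD3eTg and 6.79 FPKM in B6J. The list of parathyroid, thyroid and pharyngeal genes had a median log2 ratio of 0.02 over 5 measured genes, 2 lower and 3 higher, none by 2-fold. Its 10 genes summed to 1191 FPKM in humanCD3eTg and 955.6 FPKM in B6J, with Foxe1 and Nkx2-1 listed at 0 in humanCD3eTg and Pax8 in B6J. Over all genes averaging at least 1 FPKM, 4.47% were lower by 2-fold and 2.10% higher by 2-fold.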
